A study of Mus musculus with 44 samples.

Results

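Epithelial-mesenchymal transition genes were followed through 44 mouse lung transcriptomes in 9 groups. The set holds 10 genes picked by name: the adhesion genes Cdh1, Cdh2 and Epcam, the cytoskeletal and matrix genes Vim, S100a4 and Fn1, and the transcription factor genes Snai1, Snai2, Zeb1 and Zeb2. All 10 were present in both deposited tables, among 27350 genes in all, and all 10 passed the filter on low values in each of the 12 comparisons made.

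The lungs came from C57BL6j mice, either wild type (WT) or carrying a loss-of-function mutation of Timp2 (MT2). Timp2 encodes an inhibitor of matrix metalloproteinases, the enzymes that cut the extracellular matrix. Tumour cells were LL/2-Luc2, a Lewis lung carcinoma line with a firefly luciferase reporter, and a dose was 1000000 cells. In the subcutaneous model the cells were placed under the skin of the flank of WT mice and the lungs were taken as early metastatic lungs. Those mice received the vehicle HBSS (a balanced salt solution; n = 5) or human TIMP2 made as a recombinant protein (rTIMP2), begun on day 0 (n = 5) or on day 7 (n = 4). In the intratracheal model the cells were instilled into the airway, and WT and MT2 mice were given HBSS (n = 5 each) or rTIMP2 (n = 5 each). Lungs of tumour-free WT and MT2 mice (n = 5 each) stood beside them. The rTIMP2 dose was 200 µg/kg/day, by daily intraperitoneal injection. Each library was made from polyA RNA of about 3 mm3 of lung, and the ages of the mice were not given in the sources used here. The treatment field of the rTIMP2 intratracheal lungs names a different Timp number for each mouse, so their group was taken from the sample titles. The series was designed to ask how the Timp2 mutation and rTIMP2 act on lung tumours.

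Epithelial-mesenchymal transition is the programme by which epithelial cells loosen their junctions and take on features of migratory mesenchymal cells. Snail, Slug, ZEB1 and ZEB2, the products of Snai1, Snai2, Zeb1 and Zeb2, bind E-box sequences and repress E-cadherin, the product of Cdh1. Vimentin, N-cadherin and fibronectin rise as the programme proceeds. In the normal lung the same genes also mark resident cells: Cdh1 and Epcam belong to the alveolar and airway epithelium, whereas Vim, Zeb1 and Zeb2 are used by endothelial cells, fibroblasts and leukocytes. RNA from a piece of lung mixes all of these with tumour cells, so fewer cells of a type and less RNA per cell cannot be told apart in any value below.

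Promoter sequences of 5 of the 10 genes were matched in RefSeq (build GRCm38.p6, whose coordinates are those of mm10). The 250 bases before the transcription start are shown for Epcam and Snai1, which hold the E-box CAGGTG, and for Vim and S100a4, which do not hold it. The other matched gene, Zeb2, has several starts, held it before none of them and is not shown. Cdh1 was not among the matched genes. The match did not cover every promoter, so a gene without a match here may still have a promoter in RefSeq. Capitals mark CAGGTG or its reverse complement CACCTG, searched on both strands. Starts are those of RefSeq. By the GENCODE annotation of mm10 the Vim gene starts at 13573927, so the Vim window lies inside the gene by that annotation.
Epcam, chr17:87635729-87635978, plus strand: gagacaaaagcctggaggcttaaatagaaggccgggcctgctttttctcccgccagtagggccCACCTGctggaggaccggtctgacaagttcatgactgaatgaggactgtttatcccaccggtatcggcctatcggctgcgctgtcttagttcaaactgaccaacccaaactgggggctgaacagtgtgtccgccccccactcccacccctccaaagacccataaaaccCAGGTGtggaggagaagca
Snai1, chr2:167537945-167538194, plus strand: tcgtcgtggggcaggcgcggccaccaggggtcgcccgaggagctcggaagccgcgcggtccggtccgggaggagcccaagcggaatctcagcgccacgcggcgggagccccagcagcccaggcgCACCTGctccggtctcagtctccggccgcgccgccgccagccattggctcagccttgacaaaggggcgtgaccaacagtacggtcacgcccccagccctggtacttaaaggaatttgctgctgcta
Vim, chr2:13574061-13574310, plus strand: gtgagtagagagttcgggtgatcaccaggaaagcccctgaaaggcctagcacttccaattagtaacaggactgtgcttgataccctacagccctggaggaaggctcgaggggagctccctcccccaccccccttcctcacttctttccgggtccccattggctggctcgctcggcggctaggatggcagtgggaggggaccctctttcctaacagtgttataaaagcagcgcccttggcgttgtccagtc
S100a4, chr3:90603520-90603769, plus strand: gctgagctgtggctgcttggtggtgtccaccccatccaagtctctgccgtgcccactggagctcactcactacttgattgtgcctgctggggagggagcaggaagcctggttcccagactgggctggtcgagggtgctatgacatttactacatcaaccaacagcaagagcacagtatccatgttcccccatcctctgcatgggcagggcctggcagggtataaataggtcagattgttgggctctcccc
The Epcam promoter holds the motif at 187 and at 19 bases before the start, and the Snai1 promoter holds it at 126 bases before the start. Among 32851 mouse promoters of the same length, 17.2% hold at least 1 copy. A match describes the letters in this window and is neither a bound site nor a cause of any value below.

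Values are the authors' normalized counts, each table scaled on its own, so levels were compared only within a model. A library rested on an estimated 14870000 to 19410000 reads in the subcutaneous table and on 10680000 to 17140000 reads in the intratracheal table. The luciferase reporter stood at 0 in the 10 tumour-free lungs, at 39.3 to 70.9 in the 10 HBSS intratracheal lungs and at 14.3 to 44.8 in the 14 subcutaneous lungs. In the rTIMP2 intratracheal lungs it read 23.3, 0, 0, 67.7 and 0 (WT replicates 1 to 5) and 75.5, 0.983, 50.9, 37.9 and 55.3 (MT2 replicates 1 to 5). The 4 treated lungs with reporter at 0 to 0.983 stood apart in sex-linked genes too: Xist was at 42.2 to 119 and Ddx3y at 1024 to 1321, against Xist at 4118 to 6657 and Ddx3y at 0.91 to 5.78 in the tumour-free lungs. The other 16 intratracheal lungs given tumour cells had both, Xist at 1153 to 8306 and Ddx3y at 123 to 686. Timp2 RNA was lower in tumour-free MT2 lungs (5948 to 6237) than in tumour-free WT lungs (10147 to 11489), and in HBSS tumour lungs the ranges of the genotypes overlapped (MT2 6512 to 11992, WT 5753 to 7781). All 14 subcutaneous lungs had Xist at 3.75 to 40.8 and Ddx3y at 1139 to 1714, and the sex of the mice was not given in the sources used here. Alveolar, airway and endothelial markers were present in every group, and their levels are given beside the results they move with.

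Tumour-bearing WT lungs had far less Cdh1 and Epcam RNA than tumour-free WT lungs, and far more S100a4, Fn1 and Vim RNA. Zeb1 and Zeb2 were lower, Cdh2 and Snai1 were slightly higher, and Snai2 did not pass the test. In all, 5 of the 10 genes rose and 4 fell between HBSS tumour lungs and tumour-free lungs (limma, with a Benjamini-Hochberg adjusted p below 0.05 across the whole table). Of the 16967 genes tested, 70.5% were called (32.8% higher and 37.7% lower), so a share of 9 in 10 has to be read against a background in which most genes changed.

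**Figure D1:**
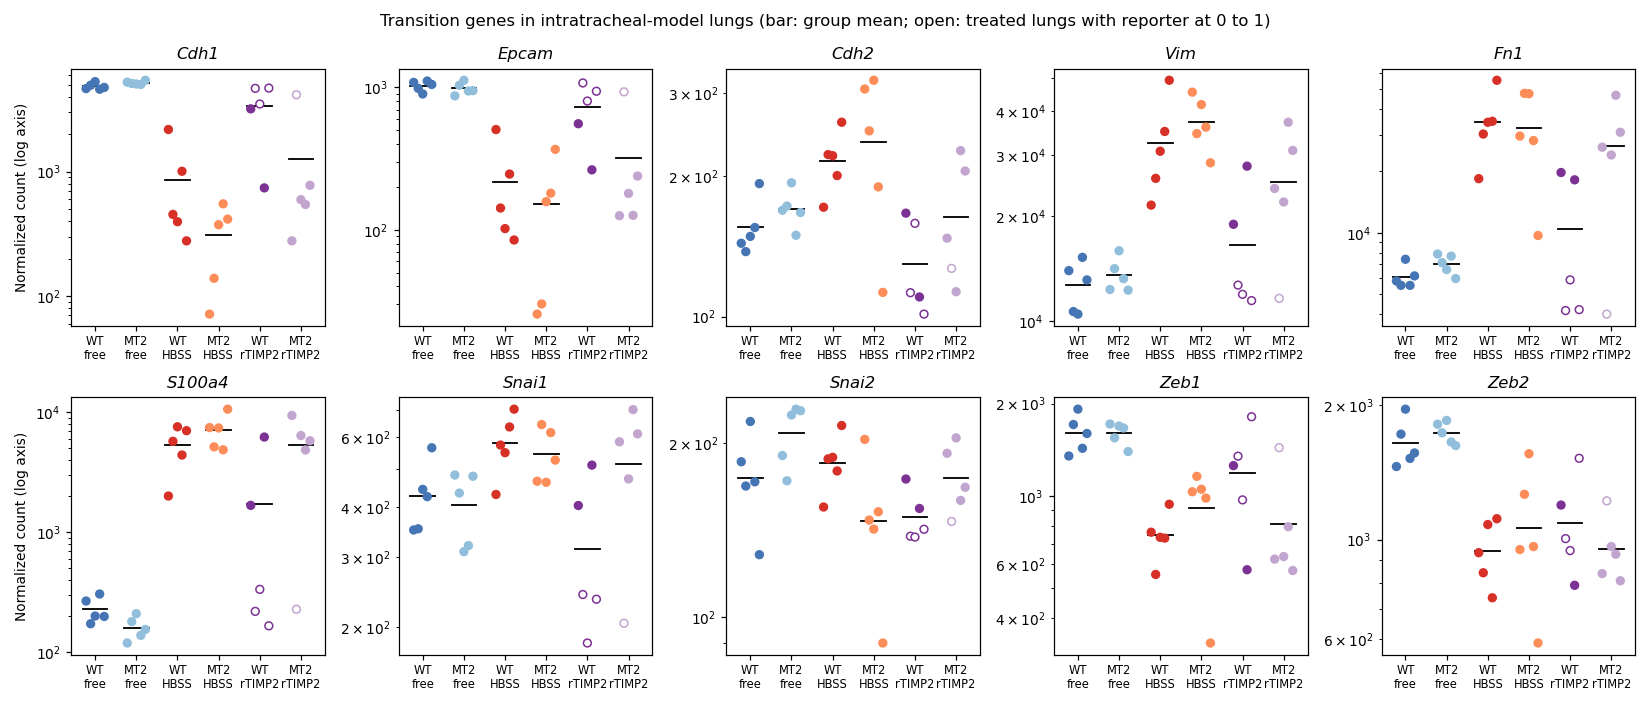
Normalized count (log axis, own range in each panel) of the 10 genes in the 6 groups of the intratracheal model, with 1 point per library, a bar at the group mean and open points for the 4 treated lungs with reporter at 0 to 0.983. Cdh1 and Epcam drop and S100a4, Fn1 and Vim climb in HBSS tumour lungs of both genotypes, and the open points lie near the tumour-free lungs for those 5 genes.

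Cdh1 encodes E-cadherin, the core protein of epithelial adherens junctions. It read 4647, 4944, 5287, 4593 and 4747 in tumour-free WT lungs and 2179, 453, 395, 1006 and 277 in HBSS tumour lungs. Every tumour lung lay below every tumour-free lung, and the tumour lungs differed among themselves by more than the tumour-free lungs did. Cdh1 fell by 2.91 ± 0.47 (SE) on the log2 scale, a 7.52-fold lower level (limma adjusted p = 0.00025). Epcam encodes a surface adhesion molecule of simple epithelia. Its values were 1085, 986, 900.1, 1110 and 1050 in tumour-free WT lungs and 506, 142, 102, 246 and 84.7 in tumour lungs, again without overlap. The tumour lung highest for Cdh1, replicate 1, was also the highest for Epcam. Epcam fell by 2.56 ± 0.41 (SE) on the log2 scale, 5.9-fold (limma adjusted p = 0.00025).

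S100a4 encodes a calcium-binding protein of motile cells, fibroblasts and leukocytes, and showed the widest difference of the set. In tumour-free WT lungs it read 266, 172, 199, 304 and 197, and in HBSS tumour lungs 2004, 5739, 7591, 4411 and 7044. The groups were separated by several fold, and the tumour lung with the most Cdh1 had the least S100a4. The rise was 4.44 ± 0.33 (SE) on the log2 scale, 21.7-fold (limma adjusted p = 2.3e-06). Fn1, which encodes the matrix glycoprotein fibronectin, went from 5817, 5539, 7425, 5536 and 6159 to 18363, 30312, 34594, 34983 and 55460. All 5 tumour lungs exceeded all 5 tumour-free lungs, and Fn1 rose by 2.43 ± 0.24 (SE) on the log2 scale (5.4-fold, limma adjusted p = 1.1e-05). Vim encodes vimentin, the intermediate filament of mesenchymal cells. It rose by 1.31 ± 0.21 (SE) on the log2 scale (2.48-fold, limma adjusted p = 0.00026), from 13959, 10646, 10469, 15237 and 13125 to 21528, 25694, 30743, 35041 and 49168, without overlap.

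Cdh2, which encodes N-cadherin, the cadherin of neural and muscle tissue, moved little. It read 144, 138, 148, 155 and 192 in tumour-free WT lungs and 171, 222, 221, 200.2 and 260.2 in tumour lungs. One tumour-free lung exceeded 1 tumour lung. The rise was 0.46 ± 0.15 (SE) on the log2 scale (limma adjusted p = 0.015), and it did not pass when all 6 groups entered the fit (0.08).

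The 4 transcription factor genes did not move together. Zeb1 fell by 1.11 ± 0.14 (SE) on the log2 scale (limma adjusted p = 5.7e-05), from 1350, 1710, 1918, 1430 and 1598 in tumour-free WT lungs to 762, 555, 734, 729 and 940.0 in tumour lungs. Zeb2 fell by 0.81 ± 0.13 (SE) on the log2 scale (limma adjusted p = 0.00024), from a range of 1456 to 1955 down to 742 to 1113. Neither gene's groups overlapped. Snai1 ranged from 351 to 564 in tumour-free WT lungs and from 430.5 to 705 in tumour lungs, overlapping, and rose by 0.44 ± 0.16 (SE) on the log2 scale (limma adjusted p = 0.03). That call was lost without HBSS replicate 2, 4 or 5 or tumour-free replicate 1, 2 or 4 (0.36 to 0.44, limma adjusted p = 0.052 to 0.077) and with all 6 groups in the fit (0.16). Snai2 ranged from 128 to 218 and from 155 to 215, with a log2 difference of 0.10 ± 0.16 (SE; limma adjusted p = 0.59).

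In MT2 lungs the same comparison gave 4 genes that rose (Vim, Fn1, S100a4 and Snai1) and 5 that fell (Cdh1, Epcam, Snai2, Zeb1 and Zeb2), where 67.4% of 16999 genes were called (31.5% higher and 35.9% lower). Cdh1 went from 5231, 5110, 5059, 5015 and 5422 in tumour-free MT2 lungs to 71.5, 139, 374, 551 and 415 in HBSS tumour lungs. It was low in all 5, and it fell by 4.4 ± 0.47 (SE) on the log2 scale, 21.1-fold (limma adjusted p = 1e-05). Epcam went from 873, 1037, 1124, 945 and 949.99 to 25.5, 30.1, 158, 181 and 367, without overlap, and fell by 3.34 ± 0.64 (SE) on the log2 scale (10.1-fold, limma adjusted p = 0.00069). The tumour lungs lowest for Cdh1, replicates 1 and 2, were the lowest for Epcam too.

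S100a4 rose 43.4-fold in MT2 lungs, by 5.44 ± 0.23 (SE) on the log2 scale (limma adjusted p = 4.3e-08). Its values were 119, 179, 209, 137 and 154 in tumour-free lungs and 7478, 5160, 7426, 4878 and 10655 in tumour lungs, far apart. Vim rose by 1.45 ± 0.16 (SE) on the log2 scale (limma adjusted p = 1.1e-05), from a range of 12265 to 15917 to a range of 28480 to 45449. Fn1 rose by 2.02 ± 0.37 (SE) on the log2 scale (limma adjusted p = 0.00054), from 7876, 7143, 6616, 7692 and 5977 to 29628, 47879, 47680, 28164 and 9697. Replicate 5 of the MT2 tumour lungs was the lowest for Fn1 and Vim and the highest for S100a4. The same library was the lowest for Cdh2 (113, against 189 to 320 in the other 4), Snai2 (90.1), Zeb1 (332) and Zeb2 (588). It was the highest of its group for Epcam (367), the alveolar type 2 sum (138170) and the reporter (70.9), though not for Cdh1 (415). Its Xist (1153) was the lowest of the group. The part of its tissue content in these values was not tested. Cdh2 had a log2 difference of 0.38 ± 0.26 (SE; limma adjusted p = 0.22), which became 0.62 (limma adjusted p = 0.0054) without that library.

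Zeb1 fell by 0.93 ± 0.30 (limma adjusted p = 0.016) and Zeb2 by 0.77 ± 0.22 (SE, log2 scale; limma adjusted p = 0.0082) in MT2 lungs. Their tumour-free values were 1396 to 1716 and 1621 to 1845, and their tumour values 332 to 1159 and 588 to 1555. The MT2 groups did not overlap for either gene. Snai1 rose by 0.43 ± 0.17 (SE) on the log2 scale (limma adjusted p = 0.041), with overlapping ranges of 309 to 482 and 462 to 645. Without tumour replicate 2 or 4 or tumour-free replicate 2, 3 or 4 the Snai1 call was lost (0.34 to 0.47, limma adjusted p = 0.054 to 0.11), and so it was with no filter (0.055), without limma's trend and robust options (0.054) and with all 6 groups in the fit (0.16). Snai2 fell by 0.54 ± 0.21 (SE) on the log2 scale (limma adjusted p = 0.035), from 172 to 229 down to 90.1 to 203. The Snai2 call was lost with scaling to equal totals (0.11) or to a common upper quartile (0.068). It was also lost without tumour replicate 2 or 3 or tumour-free replicate 1, 3, 4 or 5 (limma adjusted p = 0.051 to 0.079).

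Other genes of the programme were taken from 4 lists. Of 15 epithelial junction and keratin genes, 12 fell and 1 rose in WT tumour lungs, with a median log2 difference of -2.26 against -0.073 over all genes tested. In MT2 tumour lungs 13 fell and 1 rose (median -2.94 against -0.054). The genes with the widest falls in WT were Jup, a junction linker gene (-3.10 ± 0.46 SE, log2 difference), and the alveolar claudin gene Cldn18 (-2.91 ± 0.37). In MT2 they were the desmoplakin gene Dsp (-4.73 ± 0.36) and Cldn18 (-4.26 ± 0.53). The gene that rose was the keratin gene Krt18 in both (0.37 ± 0.15 in WT and 0.79 ± 0.23 in MT2). All 6 epithelial identity regulators fell in both genotypes, led in WT by the transcription factor gene Ehf (-2.76 ± 0.66) and the epithelial splicing factor gene Esrp1 (-2.68 ± 0.59), and in MT2 by Ehf (-4.46 ± 0.60) and the transcription factor gene Grhl2 (-3.65 ± 0.48).

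The 18 other mesenchymal genes split. In WT tumour lungs 9 rose and 9 fell (median 0.04 against -0.073 over all genes), and in MT2 tumour lungs 7 rose and 8 fell (median -0.95 against -0.054). Twist1, a transcription factor gene of the same programme, rose from 11.5 ± 2.58 to 848 ± 284 (SD, n = 5 each) in WT and from 7.62 ± 0.948 to 880.02 ± 91.8 in MT2. Its paralog Twist2 rose from 40.7 ± 7.41 to 532 ± 93.8 in WT and from 50.8 ± 7.07 to 612 ± 212 in MT2. The widest falls were elsewhere in the list: the cadherin gene Cdh11 fell (-3.38 ± 0.33 SE, log2 difference, in WT and -4.47 ± 0.30 in MT2), and so did the periostin gene Postn (-2.95 ± 0.39 and -4.55 ± 0.36). Of 11 TGF-beta pathway genes, 2 rose and 7 fell in WT, and 1 rose and 6 fell in MT2. Their median log2 differences were -0.35 in WT (-0.073 over all genes) and -0.48 in MT2 (-0.054). Calls made up 70.5% of all genes in WT and 67.4% in MT2, so these counts are read against that background. The ligand gene Tgfb2 fell (-2.48 ± 0.36 in WT and -3.21 ± 0.21 in MT2), as did the inhibitory Smad gene Smad7 (-1.55 ± 0.18 and -2.24 ± 0.22), and the secreted matrix gene Tgfbi rose (0.89 ± 0.11 and 0.45 ± 0.19).

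Cell type markers moved with these genes. The summed level of 8 alveolar type 2 genes ranged from 313270 to 368820 in tumour-free WT lungs and from 26619 to 139550 in HBSS tumour lungs. In MT2 lungs it went from 311390 to 357080 down to 8910 to 138170. All 8 genes fell in both genotypes, as did all 5 alveolar type 1, 5 airway and 8 endothelial genes, and none of these genes was at 0 in every lung of a group. Endothelial genes summed to 54139 to 59855 in tumour-free WT lungs and to 3823 to 19535 in tumour lungs. Of 7 fibroblast genes 2 rose and 5 fell, and of 8 macrophage and monocyte genes 3 rose and 3 fell, in either genotype. Over all genes tested, 32.8% rose and 37.7% fell in WT, and 31.5% rose and 35.9% fell in MT2. The macrophage and monocyte genes summed to 74039 to 90184 in tumour-free and 30861 to 64577 in tumour-bearing WT lungs. The 2 tumour-cell genes, the reporter and Hmga2, were called higher, and Hmga2 went from 12.6 to 27.8 up to 2212 to 4713 in WT. Ddx3y, a Y-linked gene, was at 0.91 to 5.78 in the tumour-free lungs. In the HBSS tumour lungs of both genotypes it was at 123 to 672. These ranges do not overlap, so tumour and sex-linked pattern cannot be told apart in the tumour comparisons. The part of the sex-linked pattern was not tested. How far the transition genes changed within any one cell type was not tested.

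Within single libraries, Cdh1 was set against the alveolar type 2 genes and Zeb1 against the endothelial genes. The log2 level of Cdh1 minus the median log2 level of the 8 alveolar type 2 genes was -1.57 ± 0.10 in tumour-free WT lungs and -1.90 ± 0.47 in WT tumour lungs (SD, n = 5). It was -1.60 ± 0.09 in tumour-free MT2 lungs and -2.79 ± 0.52 in MT2 tumour lungs, and the MT2 ranges did not overlap (-1.75 to -1.5 against -3.27 to -2.14). For Epcam the same difference was -3.81 ± 0.19 and -3.79 ± 0.39 in WT lungs and -3.99 ± 0.16 and -4.12 ± 0.80 in MT2 lungs, with overlapping ranges in both genotypes. Zeb1 went the other way against the endothelial genes. Zeb1 minus the endothelial median was -1.96 ± 0.14 in tumour-free WT lungs and 0.29 ± 1.09 in WT tumour lungs, and -1.97 ± 0.06 and 0.97 ± 1.2 in MT2 lungs. So the endothelial markers were down by more than Zeb1 was in the tumour lungs of both genotypes. These differences are descriptions and were not tested.

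**Figure D2:**
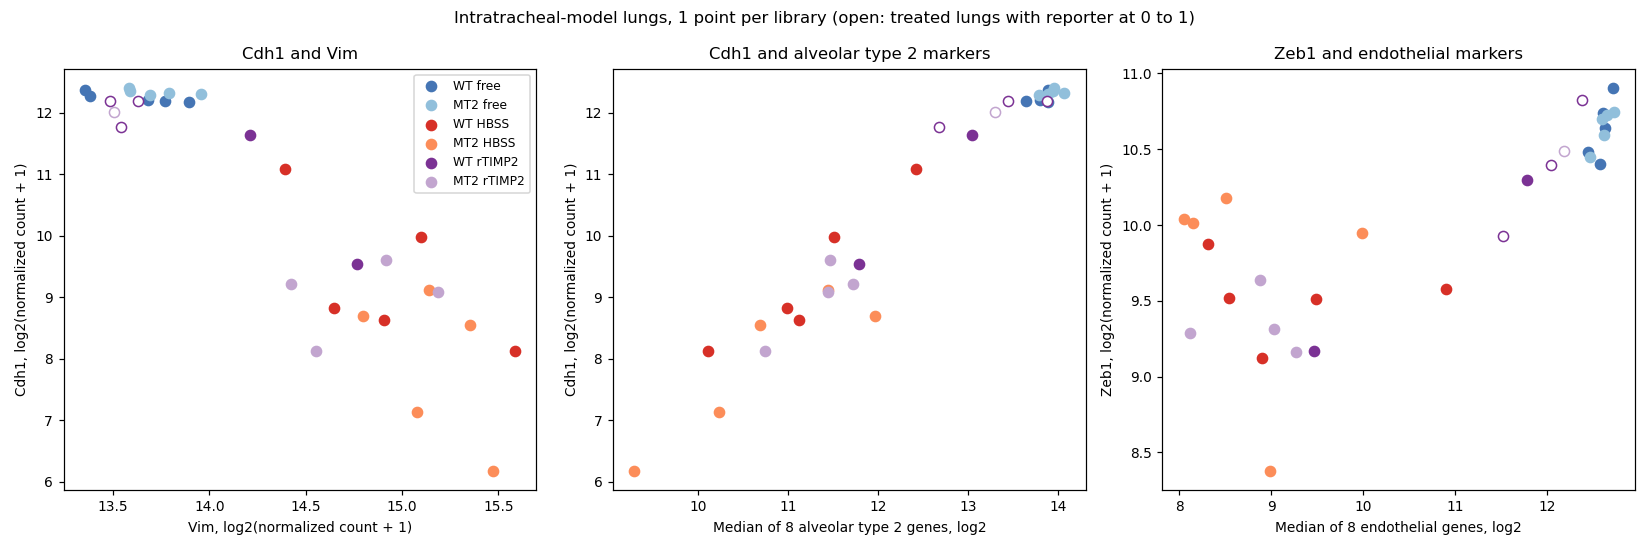
Log2 levels in the 30 intratracheal lungs, 1 point per library: Cdh1 against Vim (left), Cdh1 against the median of 8 alveolar type 2 genes (middle) and Zeb1 against the median of 8 endothelial genes (right), with open points for the 4 treated lungs with reporter at 0 to 0.983. Cdh1 is high where Vim is low and follows the alveolar type 2 genes from library to library, whereas Zeb1 spans a narrower range than the endothelial genes and varies widely among lungs where these are low.

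The Timp2 mutation gave no called difference in any of the 10 genes. Between tumour-free MT2 and WT lungs 0.0238% of 16774 genes were called (0.0119% higher and 0.0119% lower in MT2), and the lowest limma adjusted p among the 10 genes was 0.41. The widest of these differences was that of S100a4, at -0.51 ± 0.17 (SE) on the log2 scale, with an interval of ±2 SE from -0.85 to -0.16. Cdh1 was at 4593 to 5287 in WT and 5015 to 5422 in MT2, ranges that overlapped. Of the other mesenchymal genes only Loxl2, which encodes a collagen cross-linking enzyme, was called, higher in MT2 by 0.45 ± 0.07 (SE; limma adjusted p = 0.034).

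Between HBSS tumour lungs of the genotypes no gene of 16299 was called by limma (0%), while 1208 genes had an unadjusted p under 0.05. None of the 10 genes was among the latter. Cdh1 was 2.63-fold lower in MT2 (log2 difference -1.40 ± 0.64 SE, interval -2.68 to -0.11, limma adjusted p = 0.67), and the groups overlapped (71.5 to 551 against 277 to 2179). For Vim the interval ran from -0.25 to 0.73, and for Zeb2 from -0.37 to 0.60, so differences within those intervals are not excluded here. The intervals are ±2 SE and somewhat narrow for groups of this size. That of Cdh1 left out 0 although its unadjusted limma p was 0.051. The test of whether the tumour effect itself differed between genotypes called 0.0223% of 17927 genes (all 4 of them lower) and none of the 10. The nearest were Snai2 (-0.64 ± 0.26 SE, limma adjusted p = 0.40), S100a4 (1.00 ± 0.42, 0.43) and Cdh1 (-1.49 ± 0.71, 0.50).

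In WT tumour-cell recipients, rTIMP2 went with higher Cdh1 and Epcam and lower Cdh2, Vim, Fn1, S100a4 and Snai1: 7 of the 10 genes were called between rTIMP2 and HBSS lungs, where 27.3% of 16908 genes were called (16% higher and 11.3% lower). Over all genes 2702 were higher and 1917 lower, and with scaling to equal totals 2192 and 2246. This comparison shares its HBSS lungs with the tumour comparison above. The treated lungs differed widely among themselves. Cdh1 read 3193, 4669, 3493, 739 and 4692 in replicates 1 to 5 of the treated lungs, against 277 to 2179 with HBSS. The 3 treated lungs with reporter at 0, replicates 2, 3 and 5, were at 3493 to 4692, and replicate 4, with reporter at 67.7, lay inside the HBSS range. Hmga2, the other tumour-cell gene, read 1198, 23.5, 32.1, 2780 and 13.6 in treated replicates 1 to 5. It was at 12.6 to 27.8 in tumour-free and 2212 to 4713 in HBSS WT lungs.

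**Figure D3:**
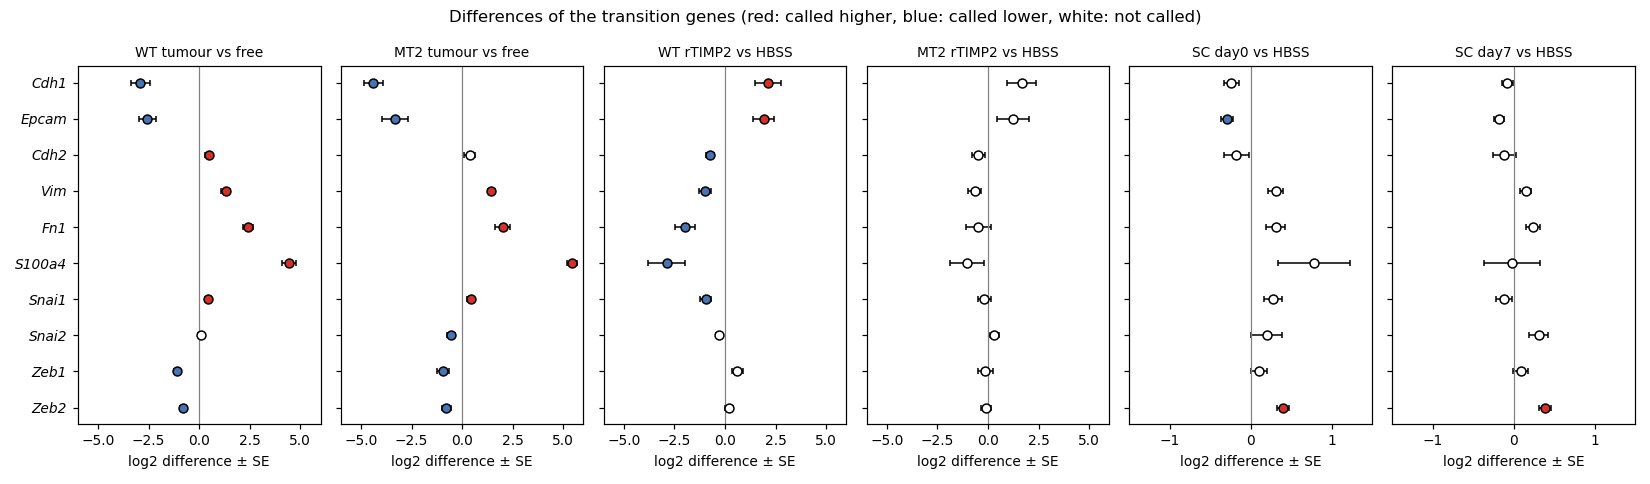
Log2 difference ± SE (limma) of the 10 genes in 6 comparisons, red where called higher, blue where called lower and white where not called; the 2 right panels, for the subcutaneous model (SC), have a narrower axis. In the WT rTIMP2 panel 7 genes are called, with wide errors, and none is called in the MT2 rTIMP2 panel; panels of one genotype share their HBSS lungs.

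Epcam read 556, 1076, 803, 264 and 941 in treated WT lungs, against 84.7 to 506 with HBSS. S100a4 read 1674, 218, 333, 6230 and 165, so replicates 2, 3 and 5 (165 to 333) lay around the tumour-free range of 172 to 304 and replicate 4 lay among the HBSS lungs. Fn1 read 19670, 4172, 5889, 18121 and 4216, with replicate 1 inside the HBSS range (18363 to 55460) and replicate 4 just below it. Vim read 18964, 12682, 11929, 27854 and 11446, with replicate 4 inside the HBSS range (21528 to 49168) and replicate 1 below it. Replicates 2, 3 and 5 were the lowest for both genes. On the log2 scale Cdh1 was higher by 2.14 ± 0.64 (SE; limma adjusted p = 0.041) and Epcam by 1.91 ± 0.52 (0.04). S100a4 fell by 2.88 ± 0.92 (0.044), Fn1 by 2.00 ± 0.50 (0.04) and Vim by 1.00 ± 0.31 (0.042). Snai1 fell by 0.96 ± 0.28 (0.04), with treated lungs at 404, 241, 182, 510.1 and 235. Cdh2 fell by 0.74 ± 0.21 (0.04). Its treated lungs, at 101 to 166, ended just below its HBSS lungs, at 171 to 260.2.

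Snai2, Zeb1 and Zeb2 did not pass in this comparison. Zeb1 was at 1256, 1348, 971, 575 and 1812 in treated WT lungs (log2 difference 0.60 ± 0.28 SE, limma adjusted p = 0.11), and it passed without treated replicate 4 (0.84, limma adjusted p = 0.0063). Zeb2 was at 791 to 1519 and Snai2 at 138 to 174, both overlapping the HBSS lungs. The 7 calls were lost without HBSS replicate 2, 3, 4 or 5, or without treated replicate 1, 2, 3 or 5, when limma called no gene at all. The differences themselves stayed near their full size in those fits, at 1.84 to 2.3 for Cdh1, -2.31 to -1.75 for Fn1 and -3.21 to -2.38 for S100a4, with limma adjusted p from 0.069 to 0.11 over the 7 genes. The S100a4 call was lost also with no filter (0.053) and without limma's trend and robust options (0.051). With replicates 2, 3 and 5 left out together because of their reporter, 2 treated lungs remained. The differences were then 1.26 for Cdh1, 1.14 for Epcam, -0.79 for Fn1, -0.44 for Vim, -0.59 for S100a4, -0.33 for Snai1 and -0.65 for Cdh2, the last being close to its value of -0.74 with all lungs. None of the 7 passed (limma adjusted p = 0.70 to 0.74), and no gene of the table was called.

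Markers moved alongside. Of 15 junction and keratin genes 10 rose with rTIMP2 in WT lungs and none fell (median 1.78 against 0.032 over all genes), among them Jup (2.12 ± 0.65 SE, log2 scale) and Cldn18 (2.10 ± 0.54). Among 18 mesenchymal genes 9 fell and 2 rose, where 11.3% of all genes fell and 16% rose. Twist1 fell by 3.50 ± 1.10 and Twist2 by 2.63 ± 0.82, and Cdh11 rose by 1.98 ± 0.49 and Postn by 1.86 ± 0.57. Grhl2 (2.08 ± 0.60) and Ovol2 (2.20 ± 0.66) were the 2 of 6 epithelial identity regulators that rose. In the TGF-beta list the receptor gene Tgfbr1 (0.43 ± 0.14) and Smad7 (1.00 ± 0.34) rose and Tgfbi fell by 0.71 ± 0.23. The alveolar type 2 sum was 203130, 289990, 181800, 83274 and 341800 in treated replicates 1 to 5 and the endothelial sum 35753, 41631, 28203, 7334 and 50795, so replicate 4 was the lowest for both. The part of these cell types, of the reporter and of the sex-linked genes in the 7 calls was not tested.

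In MT2 lungs rTIMP2 gave no call among the 10 genes, and limma called none of 16248 genes (0%; 1559 had an unadjusted p under 0.05). Cdh1 read 278, 4143, 595, 544 and 776 in treated MT2 lungs and 71.5 to 551 with HBSS. Replicate 2, with reporter at 0.983 and Hmga2 at 63.9, stood far above the rest, and the other 4, with Hmga2 at 3112 to 5300, overlapped the HBSS lungs or lay just above them. The Cdh1 difference was 1.68 ± 0.72 (SE; limma adjusted p = 0.51), and 1.08 without replicate 2 (0.56). S100a4 read 9439, 227, 6414, 4864 and 5804 and Fn1 26138, 4009, 23954, 46852 and 30930, with replicate 2 the lowest for both. Without that library the differences were -0.09 for S100a4 and 0.12 for Fn1 (limma adjusted p = 0.92 and 0.94).

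The test of whether the rTIMP2 effect differed between genotypes called none of 17841 genes (0%; 1053 at an unadjusted p under 0.05). For Cdh1 the difference of effects was -0.46 ± 1.0 (SE), with an interval from -2.52 to 1.60, and for S100a4 it was 1.83 ± 1.3, from -0.84 to 4.49. Intervals of that width do not exclude large differences. Treated MT2 against treated WT lungs also gave no call among 16858 genes (0%; 2998 at an unadjusted p under 0.05). Cdh1 was 3.62-fold lower and S100a4 4.99-fold higher in treated MT2 lungs, each at a limma adjusted p of 0.26. Without MT2 replicate 2 the comparison called Cdh1 (-2.46), Epcam (-2.01), Fn1 (1.91), S100a4 (3.28) and Snai1 (1.00), at limma adjusted p from 0.02 to 0.032. With the 3 WT lungs of reporter 0 left out as well, none was called, and the differences were -1.58 for Cdh1 and 0.99 for S100a4 (limma adjusted p = 0.45 and 0.50).

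In the subcutaneous model the widest called difference among the 10 genes was 0.39 on the log2 scale. Zeb2 rose with rTIMP2 from either starting day, Epcam fell with rTIMP2 from day 0, and none of the other 8 genes passed in either comparison. Both comparisons share the same 5 HBSS lungs. From day 0, 2 of 10 genes were called against 8.1% of 17282 genes (3.88% higher and 4.21% lower), and from day 7, 1 of 10 against 10.4% of 17389 genes (4.46% higher and 5.92% lower). Over all genes 671 rose and 728 fell from day 0 (861 and 491 with scaling to equal totals), and 776 rose and 1029 fell from day 7 (948 and 798). The tumour-cell genes went apart in these lungs. The reporter was at 14.3 to 31.3 with HBSS, 16.3 to 44.8 from day 0 and 19.3 to 41.3 from day 7. Hmga2, with low values, was at 1.01 to 6.4, 7.25 to 13.9 and 6.1 to 18.02 in the same order. Xist was at 3.75 to 20.7, 9.4 to 29.1 and 21.8 to 40.8. The part of these differences in the calls was not tested.

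**Figure D4:**
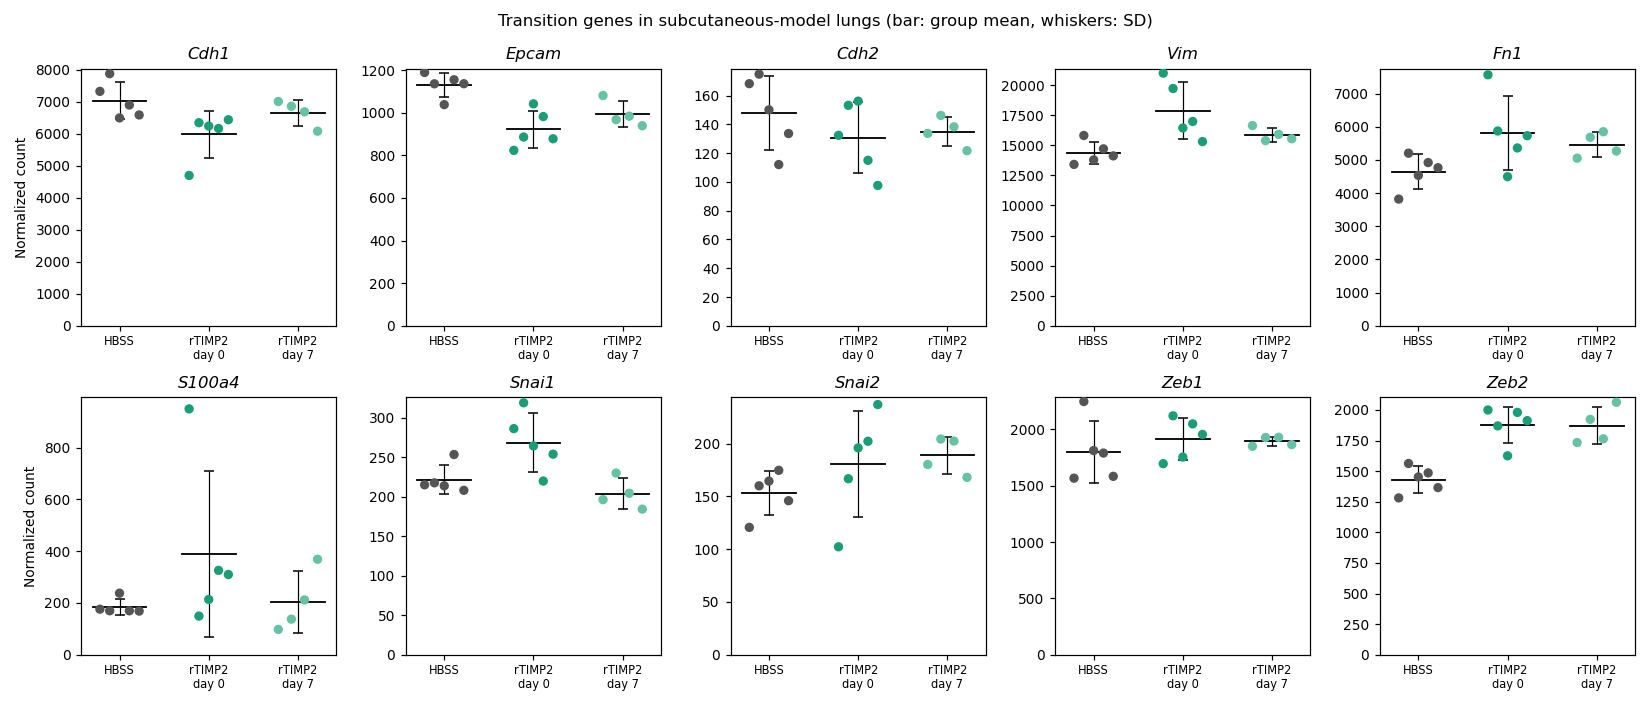
Normalized count (linear axis from 0) of the 10 genes in the 3 groups of the subcutaneous model, with 1 point per library, a bar at the mean and whiskers for the SD. Zeb2 lies higher in both rTIMP2 groups than in every HBSS lung, and replicate 1 of the day 0 group is low for Cdh1 and high for S100a4.

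Zeb2 read 1281, 1563, 1453, 1486 and 1366 in HBSS lungs, 2000.0, 1870, 1625, 1980.2 and 1913 with rTIMP2 from day 0 and 1734, 1923, 1764 and 2063 with rTIMP2 from day 7. Every treated lung exceeded every HBSS lung. The rise was 0.39 ± 0.08 (SE) on the log2 scale from day 0 (1.31-fold, limma adjusted p = 0.0064) and 0.39 ± 0.07 from day 7 (1.31-fold, 0.0062). It passed under every alternative tried, with limma adjusted p from 0.0017 to 0.024 and from 0.0032 to 0.031. Zeb1, its paralog, was at 1567 to 2248 in HBSS lungs and 1696 to 2121 and 1850 to 1930.2 in the treated groups, with log2 differences of 0.10 ± 0.10 and 0.09 ± 0.09 (SE; limma adjusted p = 0.57 and 0.58). Zeb2os, an antisense gene, overlaps Zeb2, and whether the authors' counting used strand is not given in the sources used here.

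Epcam read 1189, 1136, 1038, 1155 and 1137 in HBSS lungs and 824, 886, 1042, 982 and 878 with rTIMP2 from day 0. One treated lung lay just above the lowest HBSS lung. Epcam fell by 0.30 ± 0.07 (SE) on the log2 scale (limma adjusted p = 0.023), and the call was lost with scaling to equal totals (0.073). It was also lost without limma's trend and robust options (0.052), without treated replicate 5 (0.057) and without HBSS replicate 2 (0.05) or 5 (0.051). With rTIMP2 from day 7 Epcam was at 1081, 968, 984 and 939, a log2 difference of -0.19 ± 0.06 (limma adjusted p = 0.069). Cdh1 was at 7330.2, 7884, 6500, 6903 and 6593 with HBSS, 4701, 6350.1, 6246, 6170 and 6444 from day 0 and 7014, 6864, 6691 and 6085 from day 7. The day 0 lungs all lay below the HBSS lungs, yet the difference of -0.24 ± 0.09 (SE) did not pass (limma adjusted p = 0.12).

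Vim was at 13406 to 15811 with HBSS, 15303 to 20989 from day 0 and 15383 to 16633 from day 7. Its log2 difference from day 0 was 0.31 ± 0.09 (SE; limma adjusted p = 0.058), and it passed with scaling to equal totals (0.019), with scaling to a common upper quartile (0.038), with all 3 groups in the fit (0.021) and without treated replicate 5 (0.043). Fn1 differed by 0.31 ± 0.12 from day 0 and 0.24 ± 0.09 from day 7 (limma adjusted p = 0.13 and 0.089). The latter passed with scaling to equal totals (0.039) and without HBSS replicate 2 (0.045). Cdh2, Snai1 and Snai2 had limma adjusted p of 0.5, 0.12 and 0.55 from day 0 and 0.62, 0.45 and 0.12 from day 7. Starting day made no called difference in the 10 genes, where 0.235% of 17481 genes were called (0.154% higher and 0.0801% lower from day 7). The lowest limma adjusted p was that of Snai1 (0.17), which read 286, 319, 264, 220 and 254 from day 0 and 196, 230, 204 and 184 from day 7.

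S100a4 varied most in the subcutaneous lungs. It read 176, 170, 237, 170 and 168 with HBSS, 949, 149, 213, 326 and 310 from day 0 and 97.7, 137, 212 and 369 from day 7. Replicate 1 of the day 0 group had 949 and the lowest Cdh1 of the model, and its 4 neutrophil markers summed to 38009, against 1242 to 8871 in the other 13 lungs. The part of neutrophils in its S100a4 level was not tested, and the day 0 difference of 0.78 ± 0.44 (SE) did not pass (limma adjusted p = 0.3).

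Of 15 junction and keratin genes Krt8 (fell by 0.49 ± 0.08 SE, log2 scale) and Cldn3 (fell by 0.42 ± 0.08) fell with rTIMP2 from day 0. Lower calls made up 4.21% of all genes from day 0 and 5.92% from day 7. From day 7 the genes of the list that fell were 5, namely Krt8 (-0.40 on the log2 scale), Crb3 (-0.38), Cldn3 (-0.38), Krt18 (-0.28) and Krt7 (-0.24). Elf3, an epithelial transcription factor gene, fell by 0.34 ± 0.08 from day 0 and by 0.23 ± 0.06 from day 7, and Ehf rose by 0.39 ± 0.11 from day 7. Of 17 mesenchymal genes tested, Lox, which encodes a collagen cross-linking enzyme, was the one called from day 0, and it fell by 0.48 ± 0.11. None of the 7 fibroblast, 8 macrophage and monocyte or 4 neutrophil markers was called from either day. Of 8 endothelial markers 1 fell from day 0 and 1 from day 7. Of 5 airway markers 1 fell from day 0 and 2 from day 7, and of 5 alveolar type 1 markers 0 and 1. None of these rose. Of the TGF-beta list only Skil was called, and it fell by 0.33 ± 0.10 from day 0. Among the 8 alveolar type 2 markers 1 fell from day 0 and 4 from day 7, and their sums were 346670 to 421720 with HBSS, 256650 to 343920 from day 0 and 277980 to 315480 from day 7.

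Per kilobase of exon, the order of levels changed with tumour. In tumour-free WT lungs Vim was highest (2670 normalized counts per kb), followed by Cdh1 (1060), Fn1 (522), Epcam (467) and S100a4 (390). In WT HBSS tumour lungs S100a4 was highest (9170), followed by Vim (6840), Fn1 (2970), Snai1 (357) and Cdh1 (188). The regulators were low per kb in tumour-free WT lungs, at 264 for Snai1, 156 for Zeb1, 86.4 for Snai2 and 82.3 for Zeb2, and Cdh2 was lowest at 19.3. By the GENCODE annotation of mm10, Cdh1 lies on the plus strand of chromosome 8 (106603351 to 106670246), Fn1 on the minus strand of chromosome 1 (71585520 to 71653200), S100a4 on the plus strand of chromosome 3 (90603771 to 90606045) and Zeb2 on the minus strand of chromosome 2 (44983632 to 45117395). S100a4 overlaps Gm42674 on the same strand, and Cdh2 and Fn1 overlap antisense genes, so their counts may hold reads of those.

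Across the 20 intratracheal lungs given tumour cells, genes with a pattern much like that of Cdh1, among 14691 genes, were Ptprf (Pearson r = 0.991) and Cgn (0.988), and for Epcam they were Ap1m2 (0.99), Aqp5 (0.986) and Spint2 (0.986). S100a4 was most like Rundc3a (0.988), Hoxa10 (0.988) and Cks1b (0.985), Vim like Mybbp1a (0.975) and Fn1 like Smarcc1 (0.974). Zeb1 was most like Cdc42bpa (0.976) and Zeb2 like Diaph2 (0.93), and Snai2 had the weakest best match (Fubp1, 0.79). Across the 14 subcutaneous lungs S100a4 was most like Slc11a1 (0.978) and Cyth4 (0.976), and Zeb2 like Phf21a (0.947). These coefficients describe libraries that share a table and its scaling, and in the intratracheal lungs they span treated and untreated tissue of very different tumour content.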

How the data were processed

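RNA-seq gene tables were used as deposited. Per the labels' protocols, polyA RNA of lung was sequenced. The submitters' processing notes name Partek, Bowtie2, STAR, DESeq2 and the build mm10, with no version or order. The authors deposited 1 table per model of normalized counts per gene (a signal scaled across libraries, not raw reads). From 78.9% to 84.5% of low values were whole multiples of a library's step (within 0.02 of a whole number, up to 20 steps), too few to recover reads, so no count test was run. Read depth was estimated from those steps.

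From these values log2(value + 1) was tested with limma 3.58.1 in R 4.3.3 (trend and robust options), on genes at 10 or more in a number of samples equal to the smallest group, with only the compared groups in the fit. A call is a Benjamini-Hochberg adjusted p below 0.05 across the whole table. Fold changes are on the log2(value + 1) scale and understate those of low genes. No 2 libraries held identical values. Nothing says whether samples of a group were separate mice beyond their titles, so p-values measure the spread between these samples. The scripts were tested on simulated data.

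The 10 genes and the gene lists were chosen with earlier results of these data known. All 10 genes are named; from each list and comparison, the up to 2 widest called rises and falls, or all calls where there were 5 or fewer, could be named, and for likeness the 3 highest correlations. Some results that this rule would name are not reported here. Alternatives were no filter, a pseudocount of 8, 2 other scalings, all groups of a table in the fit, a replicate block, no trend or robust option, and each library left out. Leaving out the 4 treated lungs with reporter at or near 0 was added after seeing the data. Genome coordinates agree between the files and GENCODE for all 10 genes.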

Additional observations from a re-analysis of the deposited data

Results flagged for a closer look

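Of 90 groups of values (10 genes in 9 groups), 9 held a library far from the others by Dixon's criterion, of which chance flags about 1 in 20. In the MT2 rTIMP2 lungs replicate 2 was the highest for Cdh1 (4143, others 278 to 776), Epcam (931.8, others 126 to 238) and Zeb1 (1437, others 572 to 795). That library has the reporter at 0.983. In the WT rTIMP2 lungs S100a4 was far higher in replicate 4 (6230) than in the others (165 to 1674). In the MT2 HBSS lungs Zeb1 was far lower in replicate 5 (332) than in the others (985 to 1159).

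In the subcutaneous lungs replicate 1 of the rTIMP2 day 0 group was flagged in 2 genes, low for Cdh1 (4701, others 6170 to 6444) and high for S100a4 (949, others 149 to 326). HBSS replicate 3 was high for S100a4 (237, others 168 to 176) and HBSS replicate 4 was high for Snai1 (253, others 208 to 218). No cause of these values was tested.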

How the results depend on the processing

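Of 2260 single-gene values under an alternative, 2143 kept their call status, 104 lost the call, 13 gained one and 0 reversed among called values. Most of the 2143, namely 1765, were uncalled on both sides, and 53 of these changed sign. Members called changed from 2 to 1 in subcutaneous day 0 lungs with the replicate block or without trend and robust options, and from 1 to 2 from day 7 with equal totals. In WT rTIMP2 lungs they changed from 7 to 0 with the replicate block or without the lungs of reporter 0. Leaving out 1 library gave 1 to 2 members from day 0, 1 to 2 from day 7, 8 to 9 in WT and 7 to 10 in MT2 tumour lungs, 0 to 8 in WT rTIMP2 lungs and 0 to 5 between treated genotypes.

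Over all genes, with all groups in the fit the calls were 2298 from day 0 (1399 without them), 119 between HBSS genotypes, 7773 for WT rTIMP2 (4619), 575 for MT2 rTIMP2, 0 between tumour-free genotypes and 0 for genotype by tumour (4 in each). With the replicate block they were 1087 from day 7 (1805), 22 between starting days (41), 0 for WT rTIMP2 and 2 for genotype by tumour. Without trend and robust options they were 1100 from day 7, 0 between starting days, 2 between tumour-free genotypes and 1 for MT2 rTIMP2. Between tumour-free genotypes both other scalings gave 2, and for MT2 rTIMP2 a pseudocount of 8 gave 1. Without the lungs of reporter 0, WT rTIMP2 gave 0. With 1 library left out the ranges were 861 to 1453 from day 0, 834 to 2149 from day 7, 8 to 65 between starting days, 2 to 9 between tumour-free genotypes, 0 to 1 between HBSS genotypes, 0 to 6010 between treated genotypes, 0 to 9584 for WT rTIMP2 and 2 to 55 for genotype by tumour. The cause of these shifts was not tested.

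Replicate numbers did not pair the libraries: correlations of same-numbered deviations ran from -0.57 to 0.78, in 0 of 10 comparisons were all over 0.1, and 8 of 48 pairs matched their own number best. The block ended all 7 calls in WT rTIMP2 lungs at unchanged differences (limma adjusted p = 0.1), that of Epcam from day 0 (0.064) and those of Snai1 (0.06) and Snai2 (0.066) in MT2 tumour lungs. No scaling moved the median of all genes by over 0.1 on the log2 scale. The lowest value of any of the 10 genes was 25.5 (Epcam in an MT2 HBSS lung), and single values that low carry the widest counting error.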

Other observations

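The ratio of the epithelial adhesion genes to each other shifted less than either gene. The log2 level of Epcam minus that of Cdh1 was -2.24 ± 0.20 in tumour-free WT lungs and -1.89 ± 0.20 in WT HBSS tumour lungs, and -2.39 ± 0.16 and -1.33 ± 0.73 in MT2 lungs (SD, n = 5 each). Zeb2 minus Zeb1 was -0.32 ± 0.12 in subcutaneous HBSS lungs, -0.03 ± 0.16 with rTIMP2 from day 0 (n = 5 each) and -0.02 ± 0.12 from day 7 (n = 4).

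Mesothelial markers, which the report does not follow, summed to 941 to 4487 in subcutaneous HBSS lungs, 588 to 1529 with rTIMP2 from day 0 and 421 to 809 from day 7. Of the 4 genes, 1 fell from day 0 and 3 from day 7 (limma, adjusted over all genes), where 4.21% and 5.92% of all genes fell. Cardiac muscle markers were also present, at 8368 to 14776 in subcutaneous HBSS lungs. With rTIMP2 they were at 5334 to 11139 from day 0 and 6923 to 8743 from day 7. Of these 6 genes, 2 fell from day 0 and 1 from day 7, against the same shares of all genes.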
